A study of Mus musculus with 10 samples.

Results

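The genes described here are 10 genes of the Notch pathway in mouse sarcomas: the receptors Notch1, Notch2, Notch3 and Notch4, the ligands Jag1 and Jag2, and the transcriptional repressors Hes1, Hey1, Hey2 and Heyl, which are known targets of the pathway. They were chosen by name, and all 10 of 10 were found among the 56750 features of the deposited count table through their Ensembl identifiers. Bulk RNA-seq was compared between 2 groups of tumors. Tumors 170019, 170024 and 170025 made up the dFLEx group (n = 3). Their mice were labelled dFLEx CDS +/- and carry 1 Rosa26 allele with an HA-tagged CIC::DUX4 transgene under the ubiquitous CAG promoter. Expression of the transgene requires both Cre and FLP, which were delivered to young adult mice as pCAG-Cre and pCAG-FLPE plasmids by electroporation of the hind limb muscle. Tumors 3800 and 3802 made up the KP group (n = 2). Their mice had floxed alleles of the tumor suppressor p53 (p53fl/fl), and the rest of this genotype is not reported here. The groups thus differ in more than the transgene, and for the KP tumors the means of induction, the site and the age of the mice are not given in the sources used here. RNA of each tumor was split into duplicate libraries. These were pooled per tumor, and 3802 entered with its first library alone.

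Notch receptors are single-pass membrane proteins that are cut when a Jagged or Delta-like ligand on a neighbouring cell pulls on them. The freed intracellular domain binds the DNA-binding protein RBPJ with a Mastermind coactivator in the nucleus and turns on genes such as the Hes and Hey repressors. In muscle the pathway is known for holding satellite cells in an undifferentiated state, and in vessels Notch4, Dll4, Hey1 and Hey2 are known from endothelial cells and Notch3 and Heyl from mural cells. Bulk RNA holds all cells of a tumor, so fewer cells of a type and less RNA per cell cannot be told apart.

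Pooled totals ran from 20503474 counts in 3802 to 82138251 in 170025, and at these depths 3 counts came to 0.0377 to 0.122 CPM. CPM expresses a gene's counts relative to the total of its tumor. Levels below are CPM scaled by TMM, an edgeR factor that aligns the bulk of the genes between tumors. CIC_DUX4, the transgene feature, was at 105, 201 and 423 CPM in the dFLEx tumors, at 0 counts in 3800 and at 6 counts in 3802. The single library of 3802 had the fewest counts of all libraries but the most features with a count, 36904 against 24280 to 31768 in the others. In the levels of long transcripts, tumors 170025 and 3800 stood apart from the other tumors of both groups. The median level of 3922 protein-coding genes with at least 6000 exonic bases lay 1.20 (170025) and 1.15 (3800) above that of 1318 genes with fewer than 2000, in log2 after centring each gene on its mean over tumors. The same difference was -1.33 in 170019, -0.41 in 170024 and -0.59 in 3802. This split runs across the groups, and each result that rests on it is given with the tumors side by side.

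To show what the promoters of the genes look like, the windows from 250 bases before to 50 bases after the start were taken from RefSeq (GRCm38.p6), which gave 7 of the 10 genes (Notch1 to Notch4, Jag1, Jag2 and Hey2). Each was searched on both strands for the RBPJ motif GTGGGAA and for the CIC motifs TGAATGAA and TGAATGGA, since CIC supplies the DNA-binding part of the fusion. Overlap between these motifs was not found in the windows printed. The RBPJ letters were in 6.38% of 32851 mouse promoters of this length, and the CIC letters in 1.30% and 1.21%. Of the 7 genes only Hey2 held the RBPJ letters, and none held those of CIC. Hey2 had 2 RBPJ matches, 1 on the strand of the gene at -4 to 3 and 1 on the opposite strand at -207 to -201, counted from the start with no base 0. Hes5, another Notch target of the pathway list below, had matches at -83 to -77 and, on the opposite strand, -226 to -220. The order of strands was that of Hey2, but the first bases of the matches lay 143 bases apart, against 203 in Hey2. The promoter of Notch4, the receptor with the largest difference between the groups, is shown with them. A match describes letters and not a bound site. Capitals mark the RBPJ motif.
Hey2 (chr10:30842734-30843033, minus strand): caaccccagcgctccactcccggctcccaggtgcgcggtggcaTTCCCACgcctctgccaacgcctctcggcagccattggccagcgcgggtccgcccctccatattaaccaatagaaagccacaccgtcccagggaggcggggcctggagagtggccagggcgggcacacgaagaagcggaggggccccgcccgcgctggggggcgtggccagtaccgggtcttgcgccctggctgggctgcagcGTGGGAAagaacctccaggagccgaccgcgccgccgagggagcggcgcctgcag
Hes5 (chr4:154960673-154960972, plus strand): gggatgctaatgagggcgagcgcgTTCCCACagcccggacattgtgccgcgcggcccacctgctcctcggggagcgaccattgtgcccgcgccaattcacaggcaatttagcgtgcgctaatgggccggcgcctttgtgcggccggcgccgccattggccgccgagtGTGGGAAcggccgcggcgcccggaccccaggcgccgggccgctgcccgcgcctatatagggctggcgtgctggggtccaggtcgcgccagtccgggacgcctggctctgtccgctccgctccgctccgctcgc
Notch4 (chr17:34564045-34564344, plus strand): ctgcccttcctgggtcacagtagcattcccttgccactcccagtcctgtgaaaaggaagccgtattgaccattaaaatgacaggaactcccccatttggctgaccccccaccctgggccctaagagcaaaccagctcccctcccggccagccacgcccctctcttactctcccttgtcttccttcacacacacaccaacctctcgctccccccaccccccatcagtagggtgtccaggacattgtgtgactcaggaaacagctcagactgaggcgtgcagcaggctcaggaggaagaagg

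Across the 10 genes, Notch4 and Hey1 were far higher in every dFLEx tumor than in either KP tumor, Notch2 was lower on average, and the other 7 had no unadjusted p under 0.05. Tumor sums were compared by the quasi-likelihood test of edgeR, and all 10 genes passed its filter on low counts. None of the 10 reached an adjusted p under 0.05, against 0.182% of 24743 tested genes (45 genes). At an unadjusted p under 0.05 there were 3 of 10 (Notch4 and Hey1 higher, Notch2 lower), against 10.6% of all tested genes. All dFLEx values exceeded both KP values for 3 of the 10 (Notch4, Hey1 and Hey2), against 13.7% of all tested genes, and fell short of both for 0, against 11.7%. The median log2 fold change of the 10 was 0.30, beside -0.18 over all tested genes.

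Notch4, Hey1 and Notch2 were called by other tools or with libraries in place of tumors as the unit. Libraries of a tumor share 1 RNA and are no separate tumors. DESeq2 on the same tumor sums called Notch4, Hey1 and Notch2 (adjusted p of 2.38e-06, 3.28e-06 and 0.0393), with 6.13% of all genes called. With the libraries as independent samples, the same 3 were called by edgeR and by DESeq2, where 17.1% and 25.8% of all genes were, and with the duplicate number as a replicate block, where 12.7% were. Limma-voom, in which the tumor entered as random effect, called Notch4 (adjusted p = 0.00728) and Hey1 (adjusted p = 0.00366), with 2.78% of all genes called. Without a filter on low counts the same pair was called beside 1.98% of all genes.

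**Figure D1:**
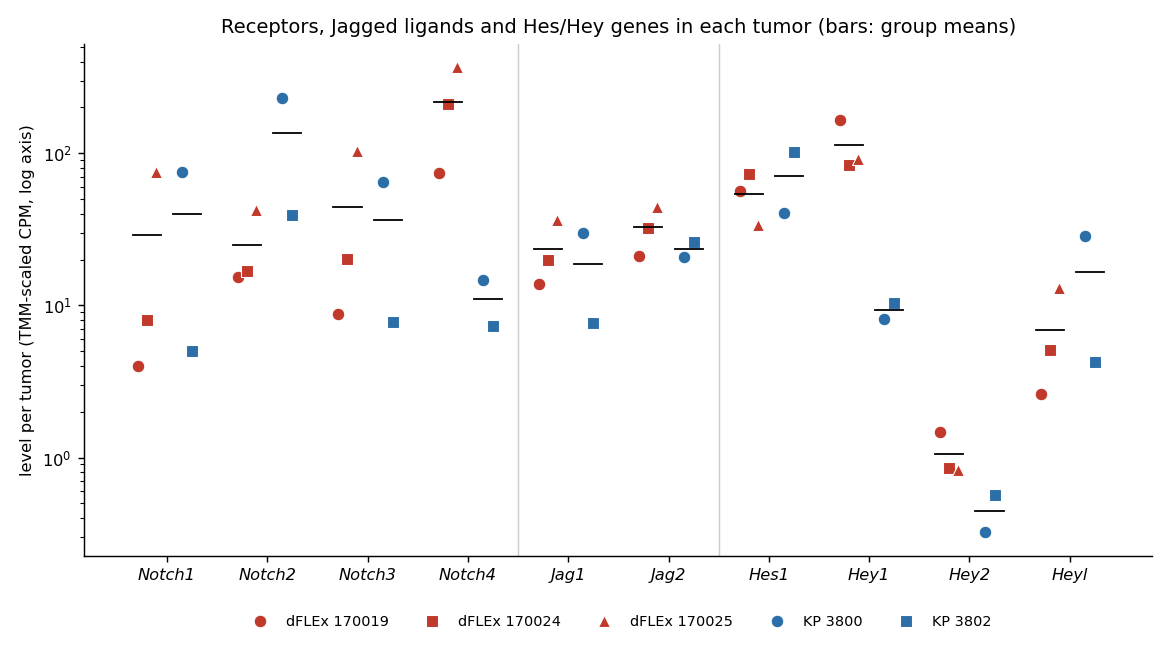
Level of each of the 10 genes in each tumor in TMM-scaled CPM on a log axis, with dFLEx tumors in red, KP tumors in blue and a bar at each group mean. Notch4 and Hey1 lie above both KP tumors in all 3 dFLEx tumors, while Notch1 and Notch3 range more widely within each group than between the groups.

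Notch4, a receptor known from endothelial cells (chromosome 17, 34783242 to 34807477 in GRCm39, plus strand, 8061 exonic bases), was at 74.5, 212 and 368 CPM in 170019, 170024 and 170025 and at 14.8 and 7.34 CPM in 3800 and 3802. The groups did not overlap, with 5.04-fold between 170019 and 3800, the nearest pair. The group means were 218 ± 147 CPM (SD, n = 3) and 11.1 ± 5.26 CPM (SD, n = 2), and the log2 fold change was 4.30 with an SE of 0.92 (adjusted p = 0.123, edgeR). With each tumor left out in turn it ran from 3.69 (without 170025) to 5.06 (without 3800). Duplicates of a tumor differed by 1.17-fold at most. After removal of the GC and length trend of each tumor, an alternative chosen after seeing the data, the log2 fold change was 3.59 and was called (adjusted p = 0.0435, edgeR), with 0.74% of all genes called.

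Notch2 (chromosome 3, 97920843 to 98057677, plus strand, 10782 exonic bases) is a widely expressed receptor and one of those known to hold satellite cells quiescent. It was at 15.3, 16.9 and 42.3 CPM in the dFLEx tumors and at 232 and 39.5 CPM in 3800 and 3802. The groups overlapped, since 170025 lay just above 3802. The log2 fold change was -2.45 with an SE of 0.85 (adjusted p = 0.337, edgeR). This value rested on 3800: without it the log2 fold change was -0.49, and without 3802 it was -3.21. The summed level of 6 muscle stem cell markers was 38.9 to 90.1 CPM in the dFLEx tumors and 474 and 247 CPM in 3800 and 3802. Unlike Notch2, this sum did not overlap between the groups. Vcam1 made up much of it in dFLEx, at 33.7, 42.1 and 75.1 CPM against 211 and 78.6 CPM in 3800 and 3802. All 6 of these markers were lower in dFLEx on the log2 scale, none with an adjusted p under 0.05 and 4 with an unadjusted p under it. Calcr was near 0 throughout (0.0268 to 0.812 CPM) and Pax7, the defining factor of satellite cells, was between 0.77 and 7.51 CPM. The part of these cells in the Notch2 difference was not tested.

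Notch1 and Notch3 did not differ between the groups beyond their spread, which was large within each. Notch1 (chromosome 2, 26347915 to 26406675, minus strand, 14232 exonic bases), the receptor known from T cell development and leukemia, was at 3.97, 8.00 and 75.6 CPM in the dFLEx tumors and at 74.9 and 5.03 CPM in 3800 and 3802. Its highest tumor was 19.0-fold above its lowest within dFLEx and 14.9-fold within KP, against 1.37-fold between the groups (log2 fold change -0.45, SE 1.38, adjusted p = 0.964, edgeR). Notch3 (chromosome 17, 32339794 to 32385826, minus strand, 8089 exonic bases), the receptor of smooth muscle and pericytes, was at 8.72, 20.3 and 103 CPM in dFLEx and at 64.5 and 7.83 CPM in KP. Its log2 fold change was 0.28 with an SE of 1.18 (adjusted p = 0.975, edgeR). Both receptors were highest in 170025 and 3800, the tumors in which long transcripts ran high. Between 170025 and 3800 alone, Notch1 differed by 0.01 and Notch3 by 0.68 on the log2 scale. Between the mean of 170019 and 170024 and tumor 3802, the differences were 0.16 for Notch1 and 0.76 for Notch3. These comparisons, chosen after seeing the data, have no test. In the same sets the difference of Notch4 was 4.64 and 4.10, and that of Notch2 was -2.45 and -1.30. Parts of the exons of 3 receptors overlap genes on the other strand or the same strand, where reads were not counted: 9.80% of the exonic bases of Notch1, 5.02% of Notch2 and 6.03% of Notch3.

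The receptor family was made up differently in the 2 groups, with Notch4 leading in dFLEx and Notch2 in KP. A share does not depend on how a tumor was scaled. Per kilobase of exon, Notch4 made up 76.9%, 85.0% and 67.5% of the summed level of the 4 receptors in 170019, 170024 and 170025, and 5.01% and 15.5% in 3800 and 3802. Notch2 made up 11.8%, 5.07% and 5.81% in the dFLEx tumors and 58.8% and 62.1% in the KP tumors. Notch4 was thus the leading receptor in 3 of 3 dFLEx tumors and Notch2 in 2 of 2 KP tumors. The difference in mean share was 66.2 percentage points for Notch4 and -52.9 for Notch2. The exact two-sided permutation test over tumors gave p = 0.2 for both, and an adjusted p of 0.32 over 8 shares compared (Benjamini-Hochberg). This test doubles the p of the smaller tail, so 0.2 is the smallest p it can give with 3 tumors against 2. Notch3 made up 8.12% to 18.9% in dFLEx and 16.4% to 21.8% in KP, and Notch1 1.82% to 7.86% and 6.00% to 14.4%, with overlap in both (exact permutation p = 0.4, adjusted p = 0.457). The summed level of the 4 receptors per kilobase overlapped between the groups, at 12.01, 30.9 and 67.6 CPM per kilobase in dFLEx and 36.6 and 5.89 in KP. Counts not divided by length gave a difference of 64.5 percentage points for Notch4 and -53.5 for Notch2.

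**Figure D2:**
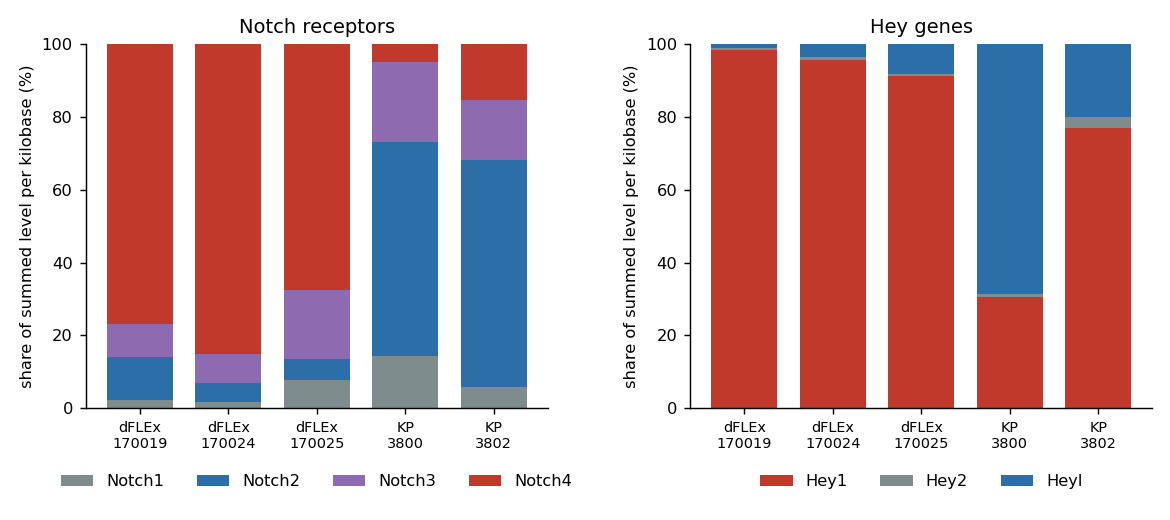
Share of each receptor (left) and of each Hey gene (right) in the summed level per kilobase of its family, in percent, with 1 stacked bar per tumor. Notch4 fills between 67.5% and 85.0% of the receptor bar in the 3 dFLEx tumors and Notch2 between 58.8% and 62.1% in the 2 KP tumors.

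The Jagged ligands overlapped between the groups. In the KP tumors their order differed, with Jag1 above Jag2 per kilobase in 3800 (5.13 against 2.99 CPM per kilobase) and below it in 3802 (1.31 against 3.75). Jag1 (chromosome 2, 136923376 to 136958564, minus strand) was at 13.8, 19.7 and 36.6 CPM in the dFLEx tumors and at 29.9 and 7.63 CPM in 3800 and 3802. Jag2 (chromosome 12, 112871439 to 112893396, minus strand) was at 21.0, 32.4 and 44.3 CPM in dFLEx and at 20.8 and 26.1 CPM in KP. The log2 fold change was 0.32 (SE 0.78) for Jag1 and 0.47 (SE 0.60) for Jag2, with adjusted p-values of 0.952 and 0.901 (edgeR). Jag1 turned to -0.16 without 170025 and to -0.34 without 3802, and Jag2 turned to -0.29 with the GC and length trend removed. Per kilobase the 2 ligands stood at 4.01 ± 2.04 for Jag1 and 4.68 ± 1.67 for Jag2 in dFLEx (SD, n = 3), a difference within their spread. Jag1 made up 42.1% to 49.7% of the Jagged level in dFLEx, and 63.2% and 25.9% in 3800 and 3802 (exact permutation p = 1).

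Among the target genes, Hey1 stood furthest apart between the groups. Hey1, a repressor of the vascular and cardiac Notch response that is also made in satellite cells (chromosome 3, 8728419 to 8732316, minus strand, 3265 exonic bases), was at 166, 83.7 and 92.0 CPM in the dFLEx tumors and at 8.13 and 10.4 CPM in 3800 and 3802. The groups did not overlap, with 8.06-fold between 170024 and 3802, the nearest pair. The group means were 114 ± 45.5 CPM (SD, n = 3) and 9.26 ± 1.60 CPM (SD, n = 2), and the log2 fold change was 3.62 with an SE of 0.68 (adjusted p = 0.097, edgeR), the smallest adjusted p of the 10 genes. With each tumor left out in turn it stayed between 3.19 and 3.83. The difference was 3.50 between 170025 and 3800 and 3.51 between the mean of 170019 and 170024 and tumor 3802. Hey1 and Notch4 were not ordered alike within dFLEx: Hey1 was highest in 170019, where Notch4 was lowest. Notch4 rose from 170019 to 170025 in the order of the long-transcript difference of these tumors (-1.33, -0.41 and 1.20). CIC_DUX4 (105, 201 and 423 CPM) and the endothelial marker sum given below (315, 390 and 638 CPM) rose in the same order. Which of these the order of Notch4 followed was not tested. The GC and length trend fitted in log2 for 170019, 170024 and 170025 was -0.45, 0.27 and 0.87 for Notch4. For Hey1 it was 0.04, 0.12 and 0.20. The part of this trend in the differing order was not tested.

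Hes1, a widely used readout of Notch activity, did not separate the groups. Hes1 (chromosome 16, 29883202 to 29886614, plus strand, 2037 exonic bases) was at 56.3, 72.9 and 33.9 CPM in dFLEx and at 40.7 and 101 CPM in 3800 and 3802. Its log2 fold change was -0.39 with an SE of 0.64 (adjusted p = 0.929, edgeR), and it turned to 0.43 without 3802. Hey2 (chromosome 10, 30708355 to 30718797, minus strand), which carried the RBPJ letters printed above, was the lowest of the 10 genes in CPM in all tumors. It was at 1.47, 0.85 and 0.83 CPM in dFLEx and at 0.32 and 0.57 CPM in KP, from 59, 49 and 66 counts against 24 and 14. The groups did not overlap, but the nearest pair, 170025 and 3802, stood 1.46-fold apart (log2 fold change 1.24, SE 1.03, adjusted p = 0.837, edgeR). Heyl, a repressor known from mural cells and satellite cells (chromosome 4, 123127349 to 123143668, plus strand), was at 2.63, 5.06 and 13.02 CPM in dFLEx and at 28.7 and 4.22 CPM in KP. Its log2 fold change was -1.26 with an SE of 0.96 (adjusted p = 0.812, edgeR), and it turned to 0.89 without 3800.

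Per kilobase, Hey1 and Hes1 were at like levels in dFLEx, 34.9 ± 13.9 and 26.7 ± 9.61 CPM per kilobase (SD, n = 3), followed by Heyl at 1.35 ± 1.06 and Hey2 at 0.228 ± 0.0788. In KP, Hes1 led with 34.9 ± 21.0 CPM per kilobase (SD, n = 2), above Heyl at 3.22 ± 3.39 and Hey1 at 2.84 ± 0.489, which did not differ beyond their spread. Hey1 made up 98.4%, 95.6% and 91.2% of the summed level of Hey1, Hey2 and Heyl in the dFLEx tumors, and 30.4% and 77.0% in 3800 and 3802. Heyl made up 0.9949%, 3.69% and 8.24% in dFLEx and 68.7% and 19.98% in KP. The groups did not overlap for either share (exact permutation p = 0.2, the smallest possible, adjusted p = 0.32). The summed level of the 3 Hey genes also did not overlap, at 51.8, 26.8 and 30.9 CPM per kilobase in dFLEx against 8.18 and 4.13 in KP.

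**Figure D3:**
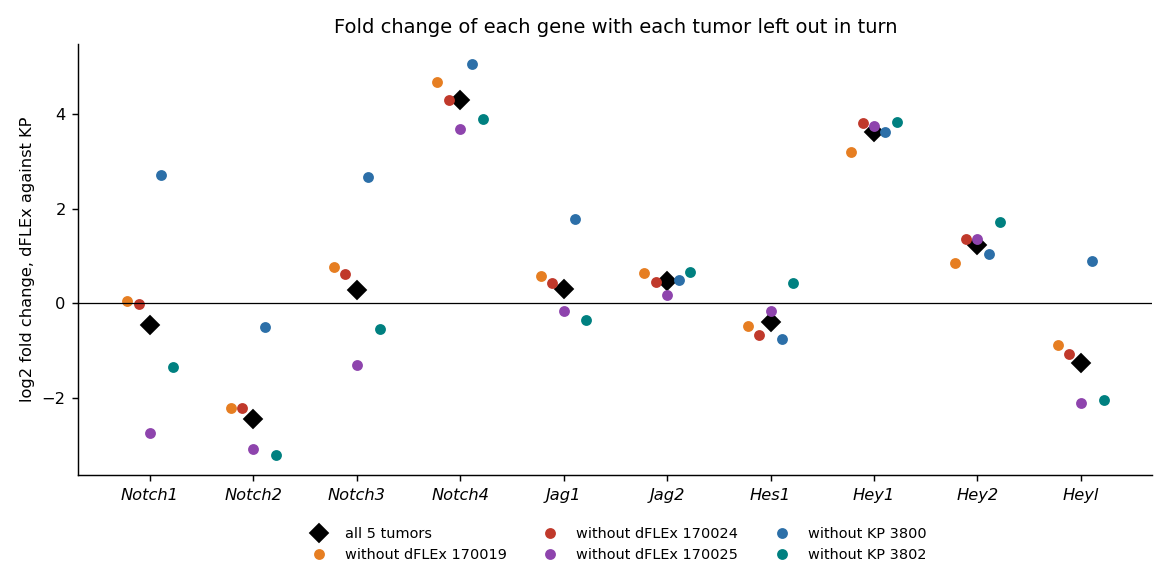
Log2 fold change of each gene, dFLEx against KP, with all 5 tumors (black diamonds) and with each tumor left out (coloured points). Notch4, Hey1, Hey2 and Jag2 stay above 0 and Notch2 below it, whereas Notch1, Notch3, Jag1, Hes1 and Heyl cross 0 when 1 tumor is left out.

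Because several of these genes are known from vessels, their levels were set against marker lists. The summed level of 9 endothelial markers was 315, 390 and 638 CPM in the dFLEx tumors and 203 and 133 CPM in 3800 and 3802. All 9 had a log2 fold change above 0 with a median of 1.19, none with an adjusted p under 0.05 and 1 with an unadjusted p under it, and Erg and Tek were the lowest of them (2.68 to 19.7 CPM). Of the list, Cdh5, Erg, Tek, Kdr and Vwf overlapped between the groups. By single-nucleus RNA-seq, the study reported Pecam1, Erg and Cdh5 as enriched in a subcluster of tumor cells of this mouse model. It saw these endothelial cell-like features in 1 of 4 tumors and left their prevalence to later work. Which cells the sum came from was not tested here. Relative to this sum, Notch4 was at 23.6%, 54.3% and 57.7% in dFLEx and at 7.30% and 5.53% in KP. Hey1 was at 52.7%, 21.5% and 14.4% in dFLEx and at 4.01% and 7.82% in KP. Neither gene overlapped between the groups on this scale, with log2 differences of 2.72 for Notch4 and 2.18 for Hey1. Dll4, a ligand of endothelial tip cells, was at 4.87% to 6.80% in dFLEx and at 4.60% and 3.36% in KP, a log2 difference of 0.56. Jag2 was at 6.67% to 8.31% in dFLEx and at 10.3% and 19.7% in KP, a log2 difference of -0.97. For these 4 genes the exact two-sided permutation p was 0.2, the smallest possible, and 0.28 after adjustment over 7 ratios. Hey2 overlapped on this scale, at 0.130% to 0.465% in dFLEx and at 0.159% and 0.428% in KP (exact permutation p = 1).

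**Figure D4:**
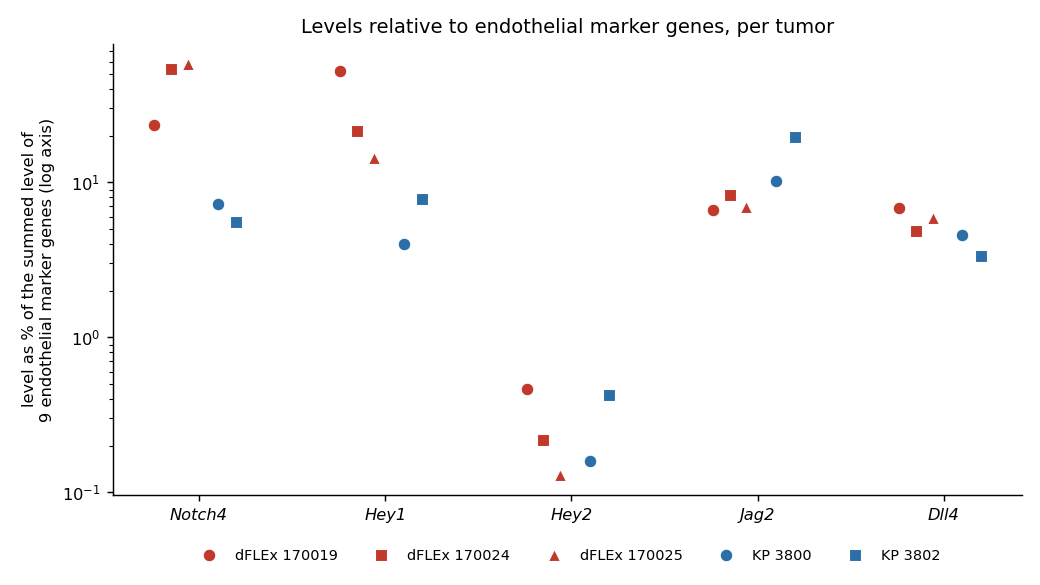
Level of Notch4, Hey1, Hey2, Jag2 and Dll4 in each tumor as a percentage of the summed level of 9 endothelial marker genes, on a log axis. Notch4 and Hey1 are higher in all 3 dFLEx tumors (red) than in both KP tumors (blue), Jag2 is lower, and Hey2 overlaps.

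Heyl and Notch3 were set against markers of mural cells. Relative to the summed level of 8 pericyte and smooth muscle markers, which was 1069, 678 and 1278 CPM in dFLEx and 660 and 402 CPM in KP, Heyl was at 0.246%, 0.745% and 1.02% in dFLEx and at 4.35% and 1.05% in KP (log2 difference -1.90, exact permutation p = 0.2, adjusted p = 0.28). This value depended on the KP tumors, being -0.88 without 3800 and -2.93 without 3802. Notch3 overlapped, at 0.816% to 8.07% against 9.77% and 1.95% (exact permutation p = 0.8). Of this list 5 members had a log2 fold change above 0 and 3 below, none with an adjusted p under 0.05. The pericyte gene Rgs5 made up much of the sum in dFLEx, at 825, 472 and 775 CPM against 249 and 16.5 CPM in 3800 and 3802. Acta2, a smooth muscle actin, was at 144, 87.5 and 252 CPM in dFLEx against 305 and 311 CPM, the largest part of the sum in KP. The sum thus rested largely on different genes in dFLEx and KP, and the ratios of Heyl and Notch3 to it carry this difference. The smooth muscle markers Myh11 and Tagln were low, Myh11 at 1.22 to 10.1 CPM and Tagln at 0.797 to 2.11 CPM. Of the other marker lists, the fibroblast, B cell and proliferation lists overlapped between the groups, and the rest did not. The summed level of 8 myofiber markers was 7737 to 30809 CPM in dFLEx against 1469 and 3859 CPM in KP. The 6 T cell markers were at 6.78 to 9.16 CPM against 11.01 and 48.6 CPM. The sum of 7 macrophage markers was 563 to 758 CPM against 1250 and 4045 CPM. Of these 7 markers, 6 had a log2 fold change below 0 and 1 above, and C1qa alone was at 3094 CPM in 3802. The part of these cells in the differences of Notch4, Hey1 and Notch2 was not tested.

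The other 50 genes of the pathway were taken from a list covering each role, of which 48 were tested. None had an adjusted p under 0.05 in edgeR on tumor sums, and 9 of 48 had an unadjusted p under 0.05, 7 higher and 2 lower in dFLEx, beside 10.6% of all tested genes. All dFLEx values exceeded both KP values for 9 of the 48, beside 13.7% of all tested genes, and fell short of both for 3, beside 11.7%. The median log2 fold change of the 48 was -0.10. Without 3802 edgeR called 2 of the list (Dll3 and Dlk1), with 1.64% of all genes called, and DESeq2 on tumor sums called 5 (Dll3, Dlk1, Dtx3, Nrarp and Hes5), with 6.13% of all genes called.

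All 5 of the other ligands separated the groups, 3 higher and 2 lower in dFLEx, and all 5 had an unadjusted p under 0.05. Over all tested genes, 13.7% lay wholly above, 11.7% wholly below and 10.6% had such a p. Dlk1, a non-canonical ligand that lacks the domain for activating Notch and is known from fetal tissue and regenerating muscle, was the highest of them, at 1230, 2674 and 3132 CPM in dFLEx and at 2.75 and 105 CPM in 3800 and 3802 (log2 fold change 5.45, SE 1.50, adjusted p = 0.215, edgeR). Dll3, a ligand that dampens signalling from within the same cell, was at 14.3, 7.34 and 6.98 CPM in dFLEx and at 0.0268 CPM (2 counts) and 0.609 CPM (15 counts) in KP (log2 fold change 5.01, SE 1.32, adjusted p = 0.202, edgeR). Both depended on the KP tumor used: without 3802 the log2 fold change was 9.75 for Dlk1 and 8.39 for Dll3. Without 3800 it was 4.65 for Dlk1 and 4.12 for Dll3. Dll4 was at 21.4, 19.0 and 37.4 CPM against 9.32 and 4.46 CPM. Dll1, an activating ligand of embryonic and regenerating muscle, was lower in dFLEx, at 3.53, 5.54 and 5.07 CPM against 19.8 and 7.39 CPM. Dlk2, a close relative of Dlk1, was at 1.66, 0.571 and 0.415 CPM against 4.67 and 3.00 CPM.

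In the roles between ligand and target most genes overlapped between the groups. Of the 5 glycosyltransferases, which tune the response of receptors to each ligand class, Mfng was at 37.8, 26.3 and 36.9 CPM in dFLEx and at 9.74 and 11.8 CPM in KP (log2 fold change 1.64, SE 0.59, adjusted p = 0.366, edgeR). Lfng, the highest of the role per kilobase, overlapped at 51.5 to 116 CPM against 21.5 and 64.2 CPM. All 4 genes of ligand endocytosis, led by Mib2, all 10 receptor proteases, led by the gamma-secretase subunit Psenen, and all 12 genes of the nuclear complex, led by the acetyltransferase Kat2a, overlapped between the groups, and none had an unadjusted p under 0.05. Rbpj itself was at 38.9, 66.6 and 200 CPM in dFLEx and at 278 and 79.0 CPM in KP, again highest in 170025 and 3800. It was named after its values were seen, as the factor of the motif above.

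Of the 9 inhibitors and turnover factors, 2 were higher in every dFLEx tumor and 0 lower, a count near that of all tested genes (13.7% and 11.7%). Nrarp, a direct Notch target that feeds back on the nuclear complex, was at 10.2, 10.98 and 18.9 CPM in dFLEx and at 2.20 and 0.325 CPM in KP (log2 fold change 3.38, SE 0.96, adjusted p = 0.232, edgeR). Dtx3, of the Deltex family of ubiquitin ligases, was at 84.9, 91.7 and 98.0 CPM against 27.3 and 22.1 CPM (log2 fold change 1.89, SE 0.56, adjusted p = 0.254, edgeR), the tightest of the values named here. Of the other Hes genes, Hes2 and Hes3 were too low to be tested. Hes5, whose promoter is printed above, had 51, 22 and 13 counts in the dFLEx tumors and 0 in both KP tumors. Against a floor of 3 counts in the shallower KP tumor (0.122 CPM), its mean in dFLEx was at least 4.96-fold higher and its lowest dFLEx tumor at least 1.34-fold higher. Hes6, which opposes Hes1 and promotes differentiation, was the highest of the role and lower in dFLEx, at 85.0, 53.2 and 27.1 CPM against 101 and 130 CPM (log2 fold change -1.07, SE 0.63, adjusted p = 0.687, edgeR).

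**Figure D5:**
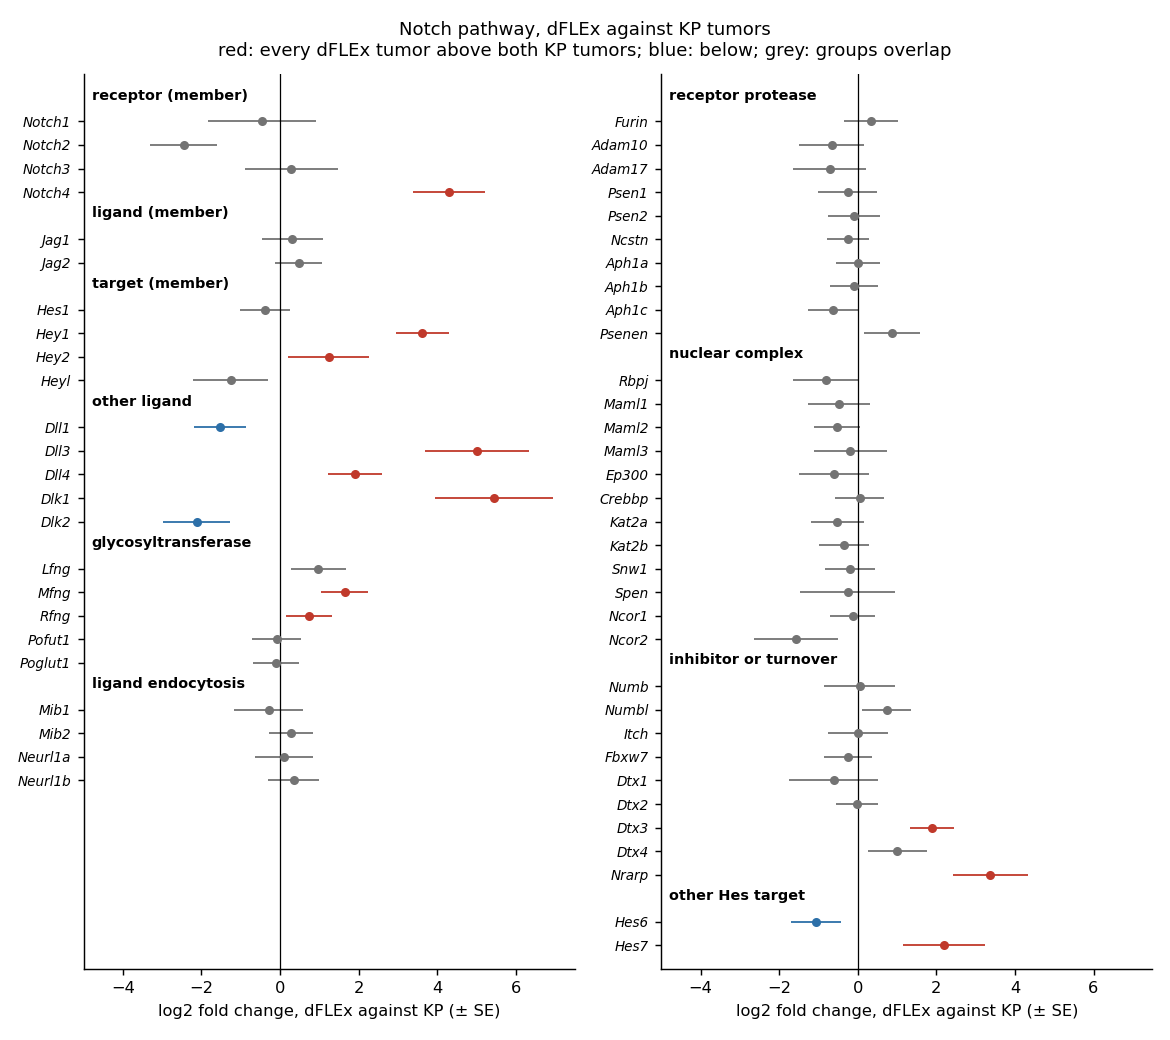
Log2 fold change, dFLEx against KP, with its SE for the 10 genes and the other tested genes of the pathway by role, without Hes5, which had no counts in KP. Red and blue mark genes whose dFLEx tumors all lie above or below both KP tumors, and these are Notch4, Hey1 and Hey2 among the 10 genes and include all 5 of the other ligands.

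The genes whose pattern over the 5 tumors was most like that of the separated genes were found among 11715 tested genes with a symbol and a mean of at least 5 CPM. Likeness was the SD over tumors of the difference of log2 levels, with 0.5 CPM added. For Notch4 these were Cacna1g (SD 0.251) and Nos1 (SD 0.338). Cacna1g, a T-type calcium channel subunit, was at 19.3, 42.3 and 95.5 CPM in dFLEx and at 4.04 and 1.99 CPM in KP. For Hey1 they were Tmem255b (SD 0.180), at 17.4, 7.71 and 10.8 CPM against 0.563 and 0.528 CPM, and Gm266 (SD 0.214). For Hey2, the lowest of the 10 genes in CPM, they were Ccdc163 (SD 0.0813) and Slc19a1 (SD 0.0945). Hey2 itself was at 0.32 to 1.47 CPM, so the added 0.5 CPM narrowed its range. Its small SDs thus cannot be set beside those of Notch4 and Hey1. These likenesses describe 5 tumors and carry no test.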

How the data were processed

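RNA was isolated from flash-frozen tumors and rRNA-depleted paired-end libraries were sequenced. The authors trimmed reads with Trimmomatic (0.39), aligned them with STAR (2.7.10a) to mm39 plus the construct, and deposited raw counts per gene from featureCounts (Subread 2.0.3), which counted each mate, ignored strand and dropped reads over several genes. Symbols came from GENCODE M39 (98.7% of 56750 features).

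The tumor was the replicate, because duplicates share RNA. That tumors came from separate animals is read from their labels. Counts of a tumor's libraries were summed, filtered with filterByExpr, scaled by TMM and compared with edgeR (4.0.16) glmQLFit and glmQLFTest, with Benjamini-Hochberg adjustment over 24743 genes. The SE is the log2 fold change over the square root of F. The study used DESeq2 without stating how duplicates were treated. DESeq2 (1.42.0), limma (3.58.1) and SciPy (1.17.1) gave alternatives and exact permutation tests. The edgeR fit was also run on simulated counts drawn without the GC and length trend. That run thus cannot tell how the fit behaves under this trend. Counts of 3 served as floor. Floors cover counting error only. The genes and lists were chosen with earlier results of these data known. Named genes are the 10 genes, pathway genes with an unadjusted p under 0.05 or the highest level per kilobase in a role, and the 2 most alike genes.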

Additional observations from a re-analysis of the deposited data

How the results depend on the processing

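Over 19 alternatives (18 for Hey2, which a mean of at least 1 CPM removes), Notch4, Hey1, Hey2 and Notch2 kept their direction, while 15 of 189 fold changes of the 10 genes reversed. The number of genes called was 45 with all tumors and moved to 3344 (libraries as samples, edgeR), 5042 (the same, DESeq2), 1516 (DESeq2 on tumor sums), 543 (limma-voom), 2476 (duplicate number as replicate block), 880 (no filter), 80 (mean of at least 1 CPM), 11 (robust dispersion), 183 (GC and length trend removed) and 0 (170019, 170024 and 3802 alone), and ran from 0 to 414 with each tumor left out. Calls among the 10 genes moved from 0 to 3, 3, 3, 2, 3 (replicate block), 2 (no filter) and 1 (trend removed), and pathway genes called from 0 to 10, 13, 5, 2, 8 (replicate block) and 3 (no filter), and from 0 to 2 with each tumor left out. The duplicate number did not pair the libraries (r of duplicate differences between tumors -0.03 to 0.10 across genes). Library totals in place of TMM moved the median log2 fold change of all genes from -0.18 to -0.46.

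With each tumor left out, Notch1 ran from -2.73 to 2.72, Notch3 from -1.31 to 2.67, Jag1 from -0.34 to 1.79, Hes1 from -0.74 to 0.43 and Heyl from -2.09 to 0.89. Notch3 was -0.053 and -0.084 with libraries as samples (edgeR, DESeq2), -0.061 with the replicate block and -0.29 with the trend removed, where Jag2 was -0.29. With 170019, 170024 and 3802 alone, Notch1 was 0.41 and Heyl 0.030. Relative to the endothelial list, Hey2 ran from -0.86 to 0.57 with each tumor left out and was 0.10 against the mean log2 level of the list (0.5 CPM added). Relative to the pericyte and smooth muscle list, Notch3 ran from -1.85 to 0.47. The Jag1 share ran from -17.97 to 19.38 percentage points. The cause was not tested. With 3 tumors against 2, single values cannot pass 0.05 by permutation, and with 1 KP tumor left it is assumed to vary like the dFLEx tumors.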
